A study of Mus musculus with 33 samples.

Results

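Mef2c binding was examined at 1551 regions of the mouse genome where Mef2c was enriched when it was expressed together with Gata4 and Tbx5, was not enriched when it was expressed alone, and where neither partner was enriched. These gained Mef2c-only regions made up 5.03% of the 30815 regions counted by ChIP-seq, in which an antibody pulls down a factor with the chromatin it sits on and the DNA is sequenced. The regions were chosen by the ChIP-seq counts themselves. For this, read counts were summed over the libraries of a group and divided by the summed total, giving CPM, the share of a library's counts on a common scale. Enrichment was the log2 of CPM plus 5 over the CPM of all 9 input libraries plus 5, and a region counted as bound at 1.5-fold or more. In cells with all 3 factors, Mef2c was bound at 7168 regions (23.3% of all), Gata4 at 19.9% and Tbx5 at 23.5%, and 5383 of the Mef2c regions were bound by neither partner. Of those 5383 regions, 1551 (28.8%) were not bound by Mef2c alone and form the gained set. The other 3832 (71.2%) were bound by Mef2c in both settings and are called kept regions below.

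Mef2c is a MADS-box transcription factor that binds A/T-rich sequences as a dimer and switches on muscle and heart genes. MADS-box factors often work with partner proteins, and in the heart these include the zinc-finger factor Gata4 and the T-box factor Tbx5. The 3 factors together turn fibroblasts toward a cardiomyocyte-like state, a process called direct cardiac reprogramming, and the question addressed here is where Mef2c is found when its partners are present but are not themselves enriched at the region.

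All cells came from 1 immortalized line of neonatal cardiac fibroblasts (strain Cd-1, genotype alpha-MHC-GFP) that expresses large T antigen. Gata4, Mef2c and Tbx5 were delivered together by retroviruses in the three-factor cells (libraries called "with the others"), and a single factor was delivered in the other cells (called "alone"). Every culture also received sb431542, an inhibitor of Tgf-beta signalling, and xav939, an inhibitor of Wnt signalling, and was harvested unsorted at day 2. There were 5 samples of Gata4, 4 of Mef2c and 4 of Tbx5 with the others, and 4 of Gata4, 3 of Mef2c and 3 of Tbx5 alone. Input chromatin came from the three-factor cells (6 libraries, counted as 3 samples) and from the cells with each single factor (1 library each). Cells were not sorted, so a region bound in few cells and one bound weakly in many cannot be told apart. A single line was used, and the antibody differs with the factor.

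Over the regions, the Mef2c libraries held 383071 to 2377616 counts with the others and 918300 to 968131 alone, the other ChIP libraries 222761 to 1431928 and the inputs 97474 to 301678. The library labelled Gata4 alone number 4 stood apart, with a median enrichment of 0.06 at the gained regions, against -1.35 to -1.05 in numbers 1 to 3 of its group and -0.08 to 0.06 in the inputs. The rule did not use it. The main edgeR fits that include it are given with and without it. The alternative fits, and the counts of regions where Gata4 alone and Tbx5 alone do not overlap, are given only with it. Numbers 1 and 6 of the three-factor Gata4 libraries did not differ beyond the sampling noise and were counted as 1 sample in tests, as were three-factor inputs 1 and 3, and 2, 4 and 5. Three-factor libraries numbered 1, 3 and 6 held 7 to 160 reads in the 5 regions of the Y chromosome, those numbered 2, 4 and 5 held 0 to 9, and Mef2c alone held 5 to 8. These reads are not scaled to depth. Three-factor inputs 1, 3 and 6 held 7, 12 and 7, and inputs 2, 4 and 5 held 0, 2 and 0. The single-factor inputs of Gata4, Mef2c and Tbx5 held 8, 9 and 3. Gata4 alone numbers 1 to 4 held 22, 168, 118 and 4, and Tbx5 alone held 7, 4 and 8. Of the Mef2c libraries with the others, only number 3 belongs to the first kind. Three-factor and single-factor cultures were different ones, so the added factors and a difference between cultures cannot be told apart.

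The gained regions carried moderate Mef2c enrichment when the others were present and were below the summed inputs, at the median, in every other ChIP group. Their median enrichment for Mef2c with the others was 0.97, with quartiles of 0.78 and 1.21 and a range from 0.59 to 2.30, against medians of 1.23 at the kept regions and -0.91 over all regions. For Gata4 with the others the median was -0.35, against -0.64 at the kept regions and -0.38 over all, and for Tbx5 with the others it was -0.34, against -0.79 and -0.67. Mef2c alone had a median of -0.28 at the gained regions and 1.70 at the kept ones, against -1.40 over all regions. These values chose the regions and are given as a description. Median summed counts at the gained regions were 367 for Mef2c with the others and 64 for Mef2c alone, with 50 in the inputs.

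**Figure D1:**
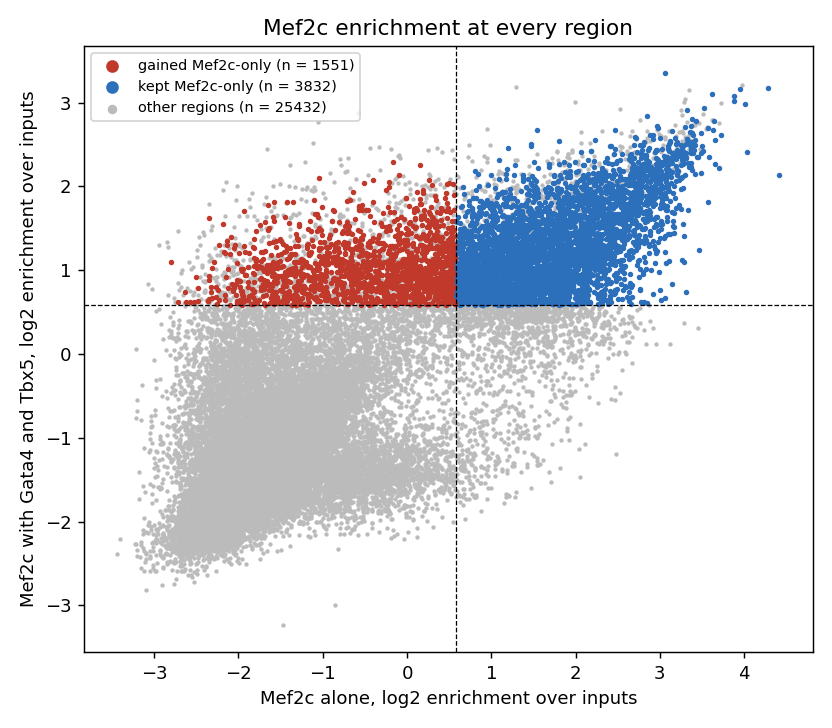
Each point is a region, with log2 enrichment over inputs for Mef2c with Gata4 and Tbx5 on the vertical axis and for Mef2c alone on the horizontal axis, and dashed lines at the threshold of 1.5-fold. The 1551 gained Mef2c-only regions (red) lie above the horizontal line and left of the vertical line, the 3832 kept regions (blue) lie right of it, and the gained regions run without a gap into the kept ones.

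The scaling decides which regions belong to the set. Kept regions alone took 25.9 to 37.3% of the counts of a Mef2c library with the others and 49.5 to 50.1% of a Mef2c library alone, and a larger share in some regions lowers the CPM of all others. With the totals adjusted by TMM, which aligns the bulk of the regions between groups, 657 regions met the rule and only 215 (13.9%) of the 1551 were among them. TMM raised the median enrichment over all regions by 0.91 for Mef2c with the others and by 1.34 for Mef2c alone. Enrichment for Mef2c with the others could only rise under these factors, so that all 1551 stayed bound by it was fixed in advance. Of the 1551, 1096 (70.7%, against 36.2% of all regions) were then also bound by Mef2c alone. Gata4 with the others was then bound at 245 (15.8%, against 31.9% of all regions). Tbx5 with the others was bound at 588 (37.9%, against 38.1% of all regions), which is near the background share. Under TMM the median rise of Mef2c with the others over Mef2c alone was 0.82, and the median over all regions moved by -0.40 to -0.09. The rule itself requires a rise at every region under scaling by totals, so its sign under another scaling is a description only. Whether a region was classed as free of Mef2c alone depended on the scaling. A threshold of 1 kept 717, pseudocounts of 1 and 10 kept 1407 and 1424 of the 1551, inputs matched to the cells kept 1326, and the mean CPM of the libraries in place of summed counts kept 1416. Within the sets of libraries that differ in Y chromosome reads, three-factor libraries 2, 4 and 5 kept 1422, and libraries 1, 3 and 6, which include a single Mef2c library, kept 1069.

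Within the set, the regions differed widely in how much Mef2c was there without the others. In 566 regions (36.5%), enrichment for Mef2c alone lay between 0 and the threshold, and the median rise with the others was 0.69. In 740 regions (47.7%) it lay below 0 but above the median of all regions, with a median rise of 1.63. The remaining 245 regions (15.8%) lay below that median and had a median rise of 2.67, with median summed counts of 374 for Mef2c with the others and 15 for Mef2c alone, beside 54 in the inputs. Mef2c with the others had median enrichments of 0.99, 0.98 and 0.88 in these bands, in the same order. The rise subtracts the enrichment alone that defines the bands, so its increase from band to band follows from the split. In these 245 regions the partners were nearer to the threshold than in the whole set, with medians of -0.17 for Gata4 and -0.02 for Tbx5 with the others, against -0.35 and -0.34 in the whole set. The set therefore spans regions that Mef2c alone occupied at a level just under the threshold and regions where it was far below input.

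The threshold passed through a continuous range. The 2 regions just inside it for Mef2c with the others, at chromosome 13, 99849358 to 99849664, and chromosome 2, 84435441 to 84435695, were both at 0.59. The 2 just outside it, at chromosome 18, 20617349 to 20617551, and chromosome 19, 10367981 to 10368181, were both at 0.58. For Mef2c alone, the gained regions nearest the threshold lay at chromosome 9, 49661370 to 49661703, and chromosome 16, 23081926 to 23082167, both at 0.58. Regions at chromosome 4, 131967781 to 131968017, and chromosome X, 7692456 to 7692724, were excluded at 0.59. Their Mef2c enrichments with the others were 0.93 and 1.30 inside and 0.70 and 0.92 outside. For Gata4 with the others, the nearest gained regions were both at 0.58 (chromosome 12, 86712561 to 86712868, and chromosome 1, 75098103 to 75098449) and the nearest excluded ones both at 0.59 (chromosome 9, 110851564 to 110851991, and chromosome 10, 41983306 to 41983507). For Tbx5 with the others, regions at chromosome 8, 74446525 to 74446773, and chromosome 12, 102219391 to 102219627, were inside at 0.58, and those at chromosome 11, 88166320 to 88166553, and chromosome 17, 87844224 to 87844458, were outside at 0.59. The excluded region on chromosome 11 had a Mef2c enrichment with the others of 2.14, near the top of the gained set.

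**Figure D2:**
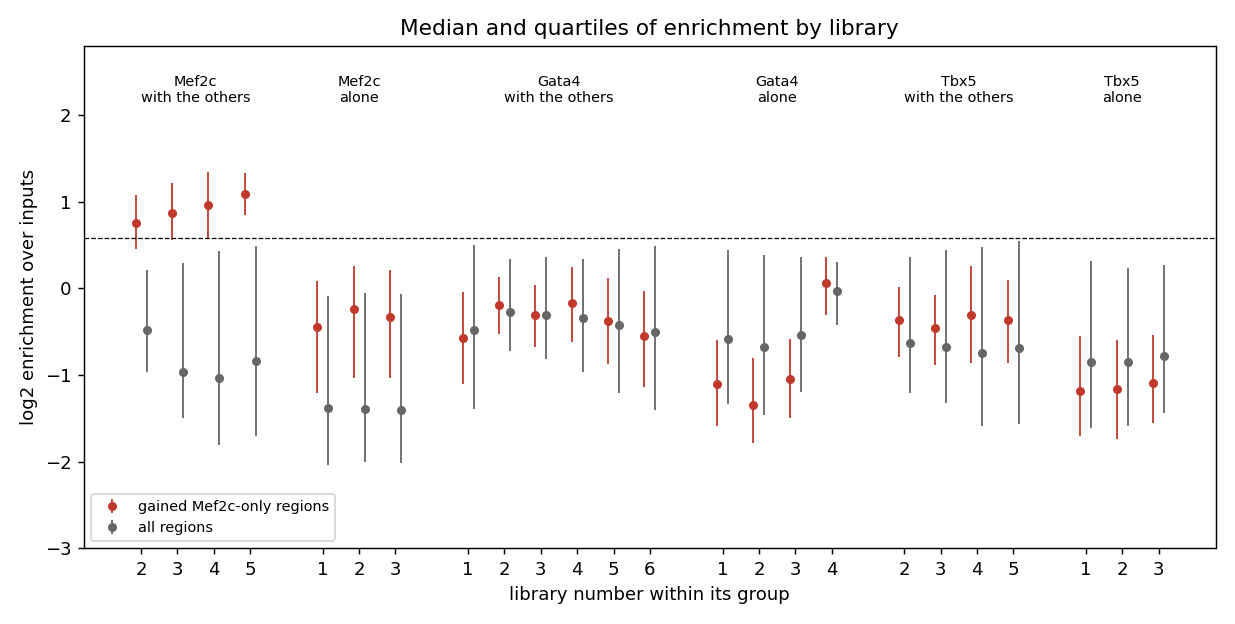
Points are the median log2 enrichment over the summed inputs in each ChIP library and lines its quartiles, over the gained Mef2c-only regions (red) and over all regions (grey), with the threshold of 1.5-fold dashed. Mef2c libraries with the others have medians of 0.75 to 1.09 at the gained regions and every other ChIP library lies below the threshold, with Gata4 alone number 4 at 0.06.

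Each Mef2c library with the others showed the enrichment. Medians at the gained regions were 0.75, 0.87, 0.96 and 1.09 in Mef2c with the others numbers 2 to 5, and 64.4, 72.3, 74.1 and 91.6% of the regions passed the threshold in a single library. Over all regions 16.2, 20.3, 22.8 and 23.4% passed. In Mef2c alone numbers 1 to 3 the medians were -0.44, -0.23 and -0.33, and 6.38, 7.80 and 6.71% of the regions passed, against 18.9, 19.2 and 19.1% of all regions. The medians of the 2 groups did not overlap, and the shares rose with depth among the libraries with the others, the shallowest (number 2) having the lowest share and the deepest (number 5) the highest. All these libraries entered the summed counts that chose the regions, the deepest with the most counts, so these values are a description. The gained regions held 9.58 to 11.7% of the counts of a Mef2c library with the others and 3.63 to 4.16% of a Mef2c library alone, beside 4.72 to 5.38% of an input. At 1154 regions (74.4%) every Mef2c library with the others had a higher CPM than every Mef2c library alone, against 29.7% of all regions, and this order is part of what the rule chose. Counted separately over the 1551, every Mef2c library with the others lay above every Gata4 and Tbx5 library with the others at 881 regions (56.8%, against 82.8% of the kept regions and 16.6% of all).

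The choice was repeated with 1 Mef2c library left out, and the left-out library was then read at the regions so chosen. Without Mef2c with the others number 2, 3, 4 or 5, the rule gave 1565, 1571, 1532 or 1341 regions, of which 63.3, 68.1, 66.1 and 85.5% passed the threshold in the library that was left out. Among the 14644 regions that met the other conditions (no Gata4 or Tbx5 with the others and no Mef2c alone), the same libraries passed at 7.88, 8.51, 8.99 and 11.2%. Without Mef2c alone number 1, 2 or 3, the rule gave 1526, 1574 or 1561 regions, and the left-out library was past the threshold at 10.3, 11.8 and 10.8% of them. The same libraries were past it at 69.3, 71.5 and 71.0% of the 5383 regions bound by Mef2c only with the others. The pattern was thus present in libraries that took no part in the choice. All enrichments share the summed inputs and the scaling by totals, so these shares are descriptive.

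**Figure D3:**
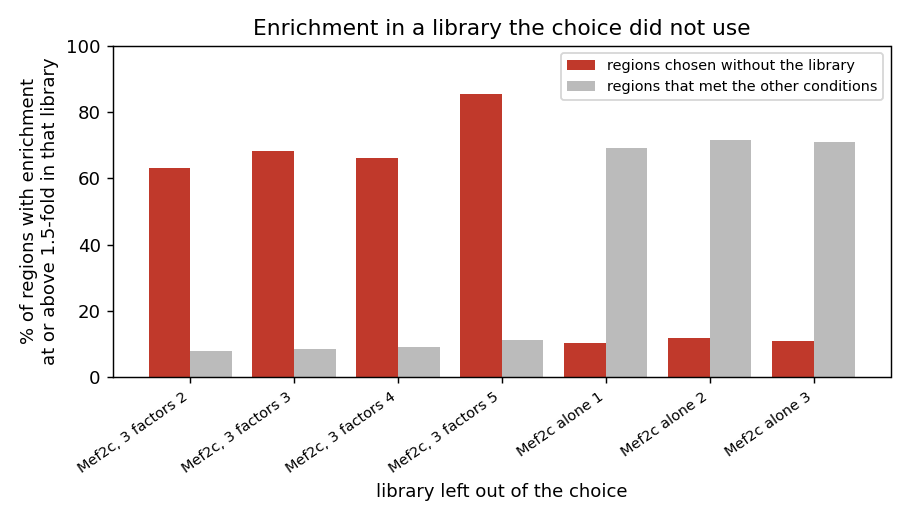
Bars show the share of regions at or above 1.5-fold enrichment in a Mef2c library that was left out of the choice, for the regions chosen without it (red) and for all regions that met the other conditions (grey). Left-out libraries with the others pass at 63.3 to 85.5% of the chosen regions against 7.88 to 11.2% of the grey ones, and left-out libraries alone at 10.3 to 11.8% against 69.3 to 71.5%.

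The highest Mef2c enrichment of the set, 2.30, was at chromosome 7, 105778608 to 105778808 (mm9). Mef2c had 44.4, 46.2, 89.0 and 61.4 CPM there with the others (numbers 2 to 5) and 7.62, 12.4 and 3.19 CPM alone. All libraries with the others lay above all libraries alone, an order found at 29.7% of all regions. This region and those named below for Mef2c were picked by the rule's own values. Their separation of libraries, fold changes and count ratios are therefore descriptions. The region is a shallow one, with 371 counts with the others, 22 alone and 16 in the inputs, and its log2 fold change in edgeR was 2.71 ± 0.42 (SE). Next was chromosome 1, 185677056 to 185677488, with 238, 256, 237 and 194 CPM with the others and 41.4, 52.7 and 49.9 CPM alone. Here Mef2c alone stood slightly above input, at an enrichment of 0.16, whereas with the others it was at 2.26. Gata4 had 35.4 to 102 CPM and Tbx5 37.1 to 77.3 CPM there with the others, enrichments of 0.43 and 0.27 that stayed under the threshold.

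At chromosome 8, 48626163 to 48626394, Mef2c had 209, 185, 189 and 167 CPM with the others and 26.1, 37.2 and 40.4 CPM alone. The log2 fold change was 2.16 ± 0.27, and the enrichments were 2.13 for three-factor cells and -0.09 for Mef2c alone. The lowest library with the others, number 5, was far above the highest alone. At chromosome 9, 22804847 to 22805063, Mef2c had 115, 113, 167 and 105 CPM with the others and 9.80, 10.3 and 9.56 CPM in the cultures with Mef2c alone, a log2 fold change of 3.39 ± 0.35. Number 4 lay far above the other libraries of its group, and Tbx5 with the others was also highest in number 4, at 65.8 CPM against 23.7 to 37.9 CPM in its other libraries. At chromosome 8, 122866947 to 122867167, Mef2c had 80.9, 73.0, 100 and 68.6 CPM with the others and 21.8, 20.7 and 14.9 CPM alone. Gata4 and Tbx5 with the others were at -0.62 and -0.79 there, and the groups of Mef2c libraries did not overlap.

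The largest differences between the settings were at regions where Mef2c alone was well below input. At chromosome 2, 44815746 to 44816003, Mef2c had 88.8, 96.5, 151 and 135 CPM with the others and 2.18, 5.16 and 3.19 CPM alone, beside 38.5 CPM in the summed inputs. The rise in enrichment, 3.97, was the largest of the set, and the log2 fold change was 4.78 ± 0.42. Chromosome 7, 36553121 to 36553657, had 144, 68.8, 149 and 89.6 CPM with the others and 1.09, 3.10 and 3.19 CPM alone. Mef2c numbers 2 and 4 were the higher ones, as they were for Tbx5 with the others (91.3 and 99.3 CPM, against 59.3 and 44.0 CPM in numbers 3 and 5). At chromosome 18, 83934382 to 83934582, Mef2c had 62.7, 91.5, 79.1 and 90.0 CPM with the others and 3.27, 1.03 and 1.06 CPM alone. Only 5 counts were found there in all libraries of Mef2c alone, against 483 with the others and 44 in the inputs, a count ratio of 48.2 (95% counting interval 20.5 to 149).

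At chromosome 7, 136955287 to 136955503, Mef2c had 83.5, 85.6, 33.2 and 87.1 CPM with the others and 0, 1.03 and 2.12 CPM alone. Number 4 was low there, and in the same number Gata4 (0 CPM) and Tbx5 (5.22 CPM) with the others were the lowest of their groups as well. Chromosome 10, 110985074 to 110985322, had 125, 85.6, 112 and 90.0 CPM with the others and 4.36, 6.20 and 1.06 CPM alone, a log2 fold change of 4.41 ± 0.42. At chromosome 14, 56322801 to 56323001, Mef2c had 62.7, 80.6, 64.6 and 80.8 CPM with the others and 1.09, 3.10 and 2.12 CPM alone. No library with the others overlapped a library alone at these 6 regions, which were picked for the largest rise, so this follows from the choice. Tbx5 with the others was between -0.01 and 0.49 at the 6 regions and Gata4 with the others between -0.75 and -0.24, so that Tbx5 was the partner nearer to the threshold at each.

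**Figure D4:**
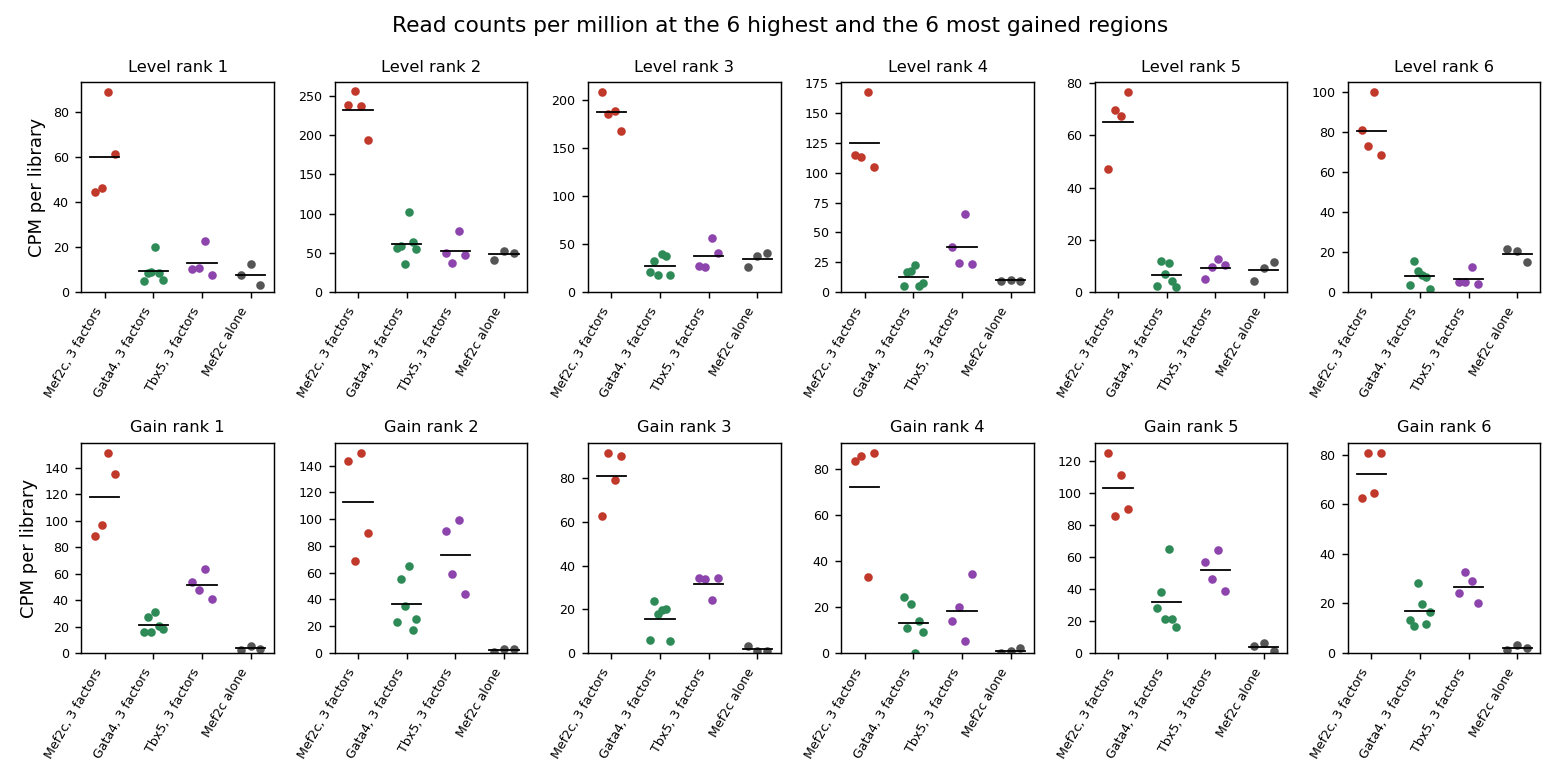
Points are CPM per library and lines group means for Mef2c, Gata4 and Tbx5 in three-factor cells and for Mef2c alone, at the 6 gained regions with the highest Mef2c enrichment with the others (upper row) and the 6 with the largest rise (lower row), with both agreeing Gata4 libraries 1 and 6 drawn. The regions were picked by the values drawn, and every Mef2c library with the others lies above every Mef2c library alone in each panel. In the panel of gain rank 4 Mef2c number 4 is low at 33.2 CPM.

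In some regions Mef2c with the others was the only group above input among those the rule used. Of the gained regions with Gata4 with the others, Tbx5 with the others and Mef2c alone all below 0, the highest for Mef2c with the others (2.08) was chromosome 13, 15564636 to 15564836. Mef2c had 47.0, 69.7, 67.5 and 76.5 CPM there with the others and 4.36, 9.30 and 11.7 CPM alone, while Gata4 with the others was at -0.68 and Tbx5 with the others at -0.25. The groups did not overlap, but the values that picked the region also set them apart. The next 5 regions of this kind had Mef2c enrichments of 1.76 to 1.99 with the others. They were chromosome 9, 47580023 to 47580401, chromosome 5, 97260843 to 97261044, chromosome 18, 42783567 to 42783768, chromosome 8, 124976337 to 124976537, and chromosome 12, 39937703 to 39937904. The one on chromosome 8 had the largest difference, with at least 78.5 CPM in every library of Mef2c with the others and at most 6.20 CPM in any of Mef2c alone, a log2 fold change of 4.29 ± 0.41.

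edgeR's quasi-likelihood F test of Mef2c with the others against Mef2c alone, fitted over all regions, is given as a description because the rule used this contrast. It placed 1074 of the 1551 regions higher with the others and 0 lower at a Benjamini-Hochberg adjusted p under 0.05, where 31.3% of all regions tested were higher and 28.8% lower. DESeq2 placed 1005 higher and 0 lower, where 27.3% and 29.2% of all regions tested were. The median log2 fold change of the set was 1.25, against 0.15 over all regions tested. Scaling by library totals gave 1291 higher, where 39% of all regions tested were higher, and moved the median over all regions to 0.47. A region that missed the threshold is not shown to be equal in the 2 settings.

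Although neither partner reached the threshold, both were closer to it with the others than alone. For Gata4, median enrichment was -0.35 with the others and -1.17 alone, and the median rise was 0.70, against 0.25 at the kept regions and 0.12 over all regions. For Tbx5 the medians were -0.34 with the others and -1.12 alone, with a median rise of 0.66 against 0.18 and 0.02. In CPM the medians were 21.4 for Gata4 and 22.5 for Tbx5 with the others, 10.5 and 10.4 alone, and 29.2 in the inputs, so that under scaling by totals both partners were below the input level in each setting and nearer to it with the others. A rise of at least 1 was found at 1045 regions (67.4%) for Mef2c, where all regions gave 19.1%, at 516 regions for Gata4 (all regions 15.4%) and at 482 for Tbx5 (all regions 11.2%). Under TMM the median enrichments at the gained regions were 0.03 with the others and -0.57 alone for Gata4, and 0.38 with the others and -0.41 alone for Tbx5, so that with the others Gata4 was then near the input level and Tbx5 above it. With Gata4 alone number 4 added to its group, the median for Gata4 alone was -0.91, the median rise of Gata4 0.47 (-0.02 over all regions), and 261 regions had a rise of at least 1 (all regions 10.9%). The rule put a ceiling on Gata4 and Tbx5 with the others and no limit on either alone, so these counts describe the set and test nothing.

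Single libraries gave an order that depended on Gata4 alone number 4. Every Gata4 library with the others lay above every Gata4 alone library of numbers 1 to 3 at 535 regions (34.5%, against 17.3% of all regions), but above all 4 Gata4 alone libraries at only 101 (6.51%, against 6.56% of all regions), which is the background share. Every Tbx5 library with the others lay above every Tbx5 library alone at 611 (39.4%, against 14.8%). With no filter on low counts, so that all 1551 regions were tested, edgeR placed Gata4 higher with the others at 280 and lower at 9, where 11.2% of all regions were higher and 10.5% lower. Tbx5 was higher at 388 and lower at 17, where 9.81% of all regions were higher and 7.73% lower. With the filter, 1024 of the regions entered for Gata4, with 244 higher and 14 lower (all regions 16.5% and 15.2%), and 950 for Tbx5, with 382 higher and 19 lower (18.8% and 14.9%). Without the library labelled Gata4 alone number 4, the Gata4 counts became 613 higher and 28 lower of 1054 regions tested (27.6% and 23.7%). The total of 258 calls (31.7% of all regions were called) was 89 to 138 without Gata4 alone number 1, 2 or 3 (17.1 to 20.8% of all regions). It was 154 to 162 without Gata4 with the others number 2, 3 or 5 (26.2 to 28.7% of all regions). The total of 401 for Tbx5 (33.7% of all regions) was 259 without Tbx5 alone number 1 (19.1% of all regions). The 3 rises share no library, but three-factor libraries with the same number deviated together from their group means across the factors (r from 0.11 to 0.53 in 12 pairs), so they are not independent of each other, and differences in depth and in the concentration of reads between settings touch all of them.

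The rises of the factors went together across the regions of the set. Pearson's r over the 1551 regions was 0.43 between Mef2c and Gata4 (Spearman's rho 0.43), 0.43 between Mef2c and Tbx5 (0.43) and 0.49 between Gata4 and Tbx5 (0.48). Over all 30815 regions r was 0.38, 0.38 and 0.36, and over the 3832 kept regions 0.22, 0.30 and 0.46. Points share libraries, same-numbered three-factor libraries deviate together, and regions share depth and any copy number of a locus in the line, so the coefficients are descriptions and carry no test.

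**Figure D5:**
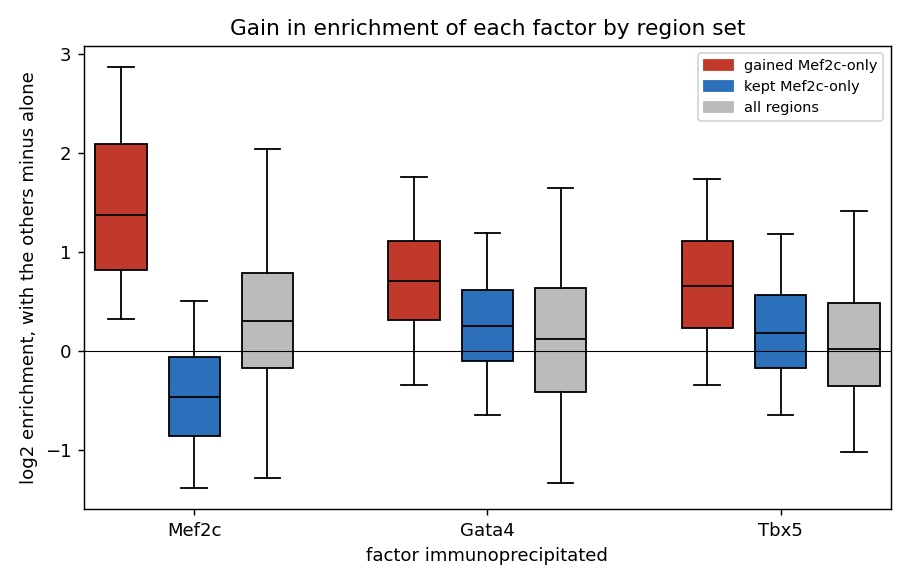
Boxes show the median and quartiles, and whiskers the 5th and 95th percentiles, of the rise in log2 enrichment with the others minus alone for each factor, over gained (red), kept (blue) and all (grey) regions. Medians at the gained regions are 1.38 for Mef2c, 0.70 for Gata4 and 0.66 for Tbx5, against 0.31, 0.12 and 0.02 over all regions, and the kept regions have a negative median for Mef2c (-0.46).

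Expressed alone, Gata4 and Tbx5 were enriched at a smaller share of the gained regions than of all regions. Enrichment for Gata4 alone passed the threshold at 48 regions (3.09%), where 21.3% of all regions did, and for Tbx5 alone at 37 (2.39%), where 20.5% did. The kept regions had low shares as well, 4.28% for Gata4 alone and 3.91% for Tbx5 alone. Regions bound by Gata4 or Tbx5 with the others were left out of both sets by the rule, so these shares describe the sets and test nothing. Under TMM the counts were 130 for Gata4 alone (8.38%, against 33.5% of all regions) and 180 for Tbx5 alone (11.6%, against 32.1% of all regions). Median enrichment was -1.17 for Gata4 alone and -1.12 for Tbx5 alone, lower than over all regions (-0.59 and -0.86) and than at the kept regions (-0.95 and -1.06). Median summed counts were 16 for Gata4 alone (numbers 1 to 3) and 13 for Tbx5 alone, so differences between these groups were mostly not detectable at this depth.

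Gata4 alone against Tbx5 alone is a contrast that the rule did not use. With no filter, so that all 1551 regions were tested, edgeR placed 78 higher for Gata4 alone and 122 higher for Tbx5 alone (adjusted p under 0.05), where 20.8% and 22.1% of all 30815 regions were. With the filter on low counts, only 440 of the gained regions entered, and 100 were higher and 77 lower for Gata4 alone, where 38.4% and 32.9% of the 18790 regions tested were. The direction that led thus depended on the filter. Scaling by totals gave 122 higher and 56 lower (41.6% and 29.5% over all regions) and moved the median over all regions to 0.46 from 0.26. Without the library labelled Gata4 alone number 4 the counts were 100 higher and 118 lower of 330 tested (43.1% and 40.1% over all regions), and without Tbx5 alone number 1 the total of 177 calls (71.3% of all regions) became 117 (55% of all regions). The share of gained regions called was below that of all regions in each of these settings. It was close to that of the kept regions, at 40.2% against 40% with the filter and 12.9% against 14% with no filter. Both sets lack, by the rule, regions bound by Gata4 or Tbx5 with the others. Every Gata4 alone library lay above every Tbx5 alone library at 214 regions (13.8%, against 17.6% of the kept regions and 26.1% of all regions). The reverse held at 66 (4.26%, against 4.51% of the kept regions and 18.6% of all). Of the 440 regions that entered with the filter, 86 were called higher for Gata4 alone with no overlap between samples (19.5%, against 31.8% of all regions tested) and 52 higher for Tbx5 alone (11.8%, against 28.5%). These counts without overlap include Gata4 alone number 4 and were not made without it.

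The 5 largest of the 86 regions higher for Gata4 alone were thinly covered for Tbx5. They passed the filter on low counts through Gata4 alone, the group where they were high, so their fold changes and adjusted p are descriptions. At chromosome 3, 105721047 to 105721252, Gata4 alone had 132, 152, 119 and 26.9 CPM in numbers 1 to 4 and Tbx5 alone 4.12, 5.97 and 14.1 CPM, a log2 fold change of 3.63 ± 0.59 (edgeR adjusted p = 7.2e-05). Number 4 was far lower than the others of its group but still above every Tbx5 library. Gata4 alone reached an enrichment of 2.07 at this region. Gata4 with the others was at 0.55, under the threshold as the rule required of every gained region. At chromosome 15, 51727082 to 51727389, Gata4 alone had 47.6, 30.5, 26.4 and 44.9 CPM and Tbx5 alone 6.18, 0 and 0 CPM, or 3 counts in all, a count ratio of 14.9 (95% counting interval 4.88 to 74.3, edgeR adjusted p = 0.000455). At chromosome 1, 182729386 to 182729649, Gata4 alone had 20.7, 22.0, 37.4 and 22.4 CPM and Tbx5 alone 2.06, 2.99 and 0 CPM, or 2 counts, a count ratio of 16.0 (4.18 to 136, edgeR adjusted p = 0.000719). Both are regions where Gata4 alone was near input, at enrichments of -0.01 and 0.33. The remaining ones, at chromosome 1, 193686811 to 193687020, and chromosome 9, 110049287 to 110049505, had log2 fold changes of 2.86 ± 0.73 and 2.76 ± 0.68 (edgeR adjusted p = 0.0022 and 0.0018).

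The 5 largest of the 52 regions higher for Tbx5 alone were well covered for Tbx5. They passed the filter through Tbx5 alone, the group where they were high, so their fold changes and adjusted p are descriptions as well. At chromosome 5, 77580096 to 77580570, Gata4 alone had 10.3, 15.2, 19.8 and 35.9 CPM and Tbx5 alone 155, 125 and 137 CPM, a log2 fold change of -2.99 ± 0.41 (edgeR adjusted p = 2.38e-05). Tbx5 alone had an enrichment of 1.60 there and Tbx5 with the others 0.27, while Mef2c stood at 1.33 in three-factor cells, against -0.75 alone. The rule set a ceiling on Tbx5 with the others and on Mef2c alone, and none on Tbx5 alone. At chromosome 9, 108204181 to 108204536, Gata4 alone had 8.28, 6.77, 4.40 and 22.4 CPM and Tbx5 alone 74.2, 56.8 and 70.6 CPM, and at chromosome 12, 77093442 to 77093763, Gata4 alone had 14.5, 5.08, 6.60 and 18.0 CPM and Tbx5 alone 65.9, 74.7 and 84.7 CPM. The groups did not overlap at either region, and their log2 fold changes were -2.99 ± 0.49 and -2.98 ± 0.45 (edgeR adjusted p = 7.79e-05 and 4.63e-05). At chromosome 10, 97795981 to 97796358, Gata4 alone had 6.21, 11.8, 15.4 and 53.9 CPM and Tbx5 alone 113, 137 and 137 CPM, and at chromosome 17, 42780271 to 42780588, Gata4 alone had 6.21, 3.38, 4.40 and 26.9 CPM and Tbx5 alone 63.9, 47.8 and 56.5 CPM. In all 5 regions number 4 was the highest Gata4 alone library and lay below every Tbx5 alone library. At 3 of the 5, Tbx5 was bound alone at an enrichment above 1. Tbx5 with the others was under the threshold there because the rule required it of every gained region, so no loss of Tbx5 can be read from this.

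Input chromatin gave no difference that could be called at any single region of the set. Median enrichment of the single libraries over the summed inputs was -0.08 to -0.03 in the three-factor inputs and 0.02 to 0.06 in the single-factor inputs. These ranges did not overlap, and over all regions the medians were -0.04 to -0.02 and -0.07 to -0.06. The gained regions held 4.7 to 5.0% of the counts of a three-factor input and 5.3 to 5.4% of a single-factor input. The kept regions held 11.3 to 11.7% and 12.4 to 12.5%. Their medians, -0.06 to -0.03 and 0.00 to 0.03, did not overlap either, so the difference is not particular to the gained set. The difference over the gained set is small and was not tested. The 6 three-factor input libraries entered as 3 samples, against 3 single-factor inputs taken as 1 arm. With no filter, all 1551 regions were tested and edgeR called 0 (all regions 0%), with 70 at an unadjusted p under 0.05, against 1686 of all 30815 regions. With the filter on low counts only 37 of them entered, of which 0 were called and 1 had an unadjusted p under 0.05 (43 of all 853 regions tested), and DESeq2 called 0. With a median of 3 to 9 counts per region in an input library, modest differences of the input were not detectable at this depth.

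The gained regions were close to the other regions in median width and in distance to their neighbours. Their median width was 237 bp (201 to 826), against 229 bp at the kept regions and 234 bp over all, and 11.4% had the smallest width of 201 bp, against 0.157% of the kept regions and 17.9% of all. Another measured region lay within 10 kb of 692 (44.6%), against 45.4% of the kept regions and 43.9% of all. Another gained region lay within 10 kb of 73 (4.71%), against 3.71% of the kept regions and 3.36% of all. A region bound by Gata4 or Tbx5 with the others lay within 10 kb of 24.7% of the gained regions, against 21.5% of the kept regions and 23.4% of all. A region bound by Mef2c alone lay as near to 11.5% of the gained regions, against 16.1% of the kept regions and 11.5% of all.

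They were spread over 20 of the 21 chromosomes, with 0 among the 5 regions of the Y chromosome. Chromosome 2 held the most, 149 regions (9.61% of the set, against 7.25% of the kept regions and 8.23% of all), and the X chromosome held 50 (3.22%, against 3.91% of the kept regions and 1.98% of all). Gained regions made up 3.83% of all measured regions on chromosome 10, the lowest share outside the Y chromosome, and 8.18% on the X chromosome, the highest. No gene, motif or sequence is given for these regions, because the annotation used here describes another genome build.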

How the data were processed

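The authors deposited raw read counts of 33 libraries in a shared table of regions, and nothing had been scaled. FastQC, Bowtie2 2.2.4 and featureCounts were used and the build was mm9, per the submitters' processing notes. How the regions were selected and how duplicate reads were handled is not given in the sources used here, and counts of bound regions depend on that selection. Deposited value columns left out numbered 0. The members, lists and tests were chosen with earlier results of these data known.

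Groups follow the sample labels, which call the replicates biological. Where a chi-square test found no difference between libraries of a group whose other pairs differed, they were summed to make 1 sample in tests, while the enrichments used all libraries. CPM are relative to the library total over the regions, so they measure shares of the reads in regions. Tests used edgeR 4.0.16 in R 4.3.3 (quasi-likelihood F test, robust, TMM, filter on low counts with its defaults), two-sided, fitted over all regions, with Benjamini-Hochberg adjusted p over all regions tested and calls under 0.05. Dividing a log2 fold change by the square root of F gave its SE. DESeq2 1.42.0, scaling by totals, no filter, 1 fit of all groups, a replicate block, other settings of the rule and leaving out each library were alternatives. The comparisons of Gata4 and of Tbx5 with the others against alone, and the mean CPM of libraries, were added after the data were seen. The code was tested on simulated data.

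Regions named were the 6 highest for Mef2c with the others, the 6 with the largest rise, the 6 highest with the rule's other enrichments below 0, the 2 nearest each side of each threshold, and, in each direction, the 5 furthest apart between Gata4 alone and Tbx5 alone among called regions whose samples do not overlap. Counting intervals (95%, exact) cover counting error only. Same-numbered samples did not deviate together from their group means (r from -0.07 to 0.07 between Gata4 alone and Tbx5 alone, 0.01 and 0.00 for Mef2c, -0.29 to 0.21 for Gata4 and -0.03 to 0.03 for Tbx5 between the libraries with the others and alone), so numbers do not pair samples in the comparisons tested. Across the factors in three-factor cells they did (r from 0.11 to 0.53), and no test was made between those groups.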

Additional observations from a re-analysis of the deposited data

Results flagged for a closer look

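In 31 groups of 4 or more samples, taken at named regions or as medians over the gained set, 4 had a sample far from the others, where chance gives about 1 group in 20. All 4 were at named regions. At chromosome 9, 22804847 to 22805063, Mef2c with the others number 4 was the highest of its group at 167 CPM, against 105 to 115 CPM in numbers 2, 3 and 5. At chromosome 7, 136955287 to 136955503, the same library was the lowest at 33.2 CPM, against 83.5 to 87.1 CPM in the others. At chromosome 1, 182729386 to 182729649, Gata4 alone number 3 was the highest at 37.4 CPM, against 20.7 to 22.4 CPM. At chromosome 17, 42780271 to 42780588, Gata4 alone number 4 was the highest at 26.9 CPM, against 3.38 to 6.21 CPM. Over the whole set this library also stood apart, with a median of 0.06 against -1.35 to -1.05, but the same check did not flag that median.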

How the results depend on the processing

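Of 101 alternatives to the main counts, 88 stayed within 1.5 times. The direction with more calls between Gata4 alone and Tbx5 alone changed, with 100 higher and 77 lower in the reported fit but 78 and 122 with no filter, 100 and 118 without Gata4 alone number 4 and 111 and 141 with a replicate block. With the block 42.1% of all regions tested were higher and 38.3% lower. TMM totals gave 657 regions in place of 1551, and of the 1551 they put 130 past the threshold for Gata4 alone in place of 48 and 180 for Tbx5 alone in place of 37. One fit of all 6 ChIP groups, which also let all 1551 regions in where 440 had entered, gave 297 calls between Gata4 alone and Tbx5 alone (48.1% of all regions) in place of 177 (71.3%), and no filter alone gave 200 (43.0%). Leaving out 1 library gave 1341 to 1588 regions for the rule and 117 to 218 calls between Gata4 alone and Tbx5 alone (55 to 83.2% of all regions). It gave 89 to 641 calls for Gata4 with the others against alone (17.1 to 51.3% of all regions) and 259 to 404 for Tbx5 (18.4 to 44.2% of all regions). The cause was not tested. The 10 regions named between Gata4 alone and Tbx5 alone kept their direction and call in every alternative in which they were tested (7 to 12 each). Numbers do not pair samples in these comparisons. With a replicate block the calls were 252 between Gata4 alone and Tbx5 alone (57.3% of the gained regions tested, against 80.4% of all), 875 for Mef2c (56.4%, against 50.6%), 185 for Gata4 (18.1%, against 22.9%) and 319 for Tbx5 (33.6%, against 31.2%) with the others against alone. Inputs held 97474 to 301678 counts over the regions, the least of any kind of library, and limit every enrichment.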
